A study of Mus musculus with 4 samples.

Results

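YAP, TEAD and their target genes were followed in NIH/3T3 cells after knockdown of *Setd2*. They comprised 10 genes, chosen by symbol: the co-activators *Yap1* and *Wwtr1*, the transcription factor *Tead1*, the kinases *Lats1* and *Lats2*, and the target genes *Cyr61*, *Ctgf*, *Ankrd1*, *Amotl2* and *Thbs1*. All 10 had tested transcripts, 24 in all, among the 34200 transcripts of 21945 genes in the deposited table.

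NIH/3T3 is an immortalised line of mouse fibroblasts, so that all libraries share 1 genetic background. In the knockdown (KD), 2 *Setd2*-specific siRNAs were transfected together at a final concentration of 10 nM. In the comparison group, called wild type (WT) in the labels, cells received a Scrambled siRNA meant to have no target. RNA was taken 48 h after transfection, and 2 KD and 2 WT libraries of polyadenylated RNA were made, although the labels speak of 3 independent transfections. The effects of each *Setd2* siRNA on its own cannot be told apart, since both were present in the same cells. The table gives means and variances over libraries, and it was used without any value of a single library. It is therefore not stated which libraries were high or low, the depth of each library is unknown, and the p-values measure only the spread between transfected samples of 1 cell line.

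The Hippo pathway restrains YAP and its paralog TAZ, the product of *Wwtr1*. The kinases LATS1 and LATS2 phosphorylate both proteins, which keeps them in the cytoplasm. Unphosphorylated YAP and TAZ enter the nucleus, where they cannot bind DNA by themselves and act through the TEAD family (TEAD1 to TEAD4). In fibroblasts the pathway responds to cell density, stretch and tension of the actin cytoskeleton. *Ctgf* and *Cyr61* encode secreted matricellular proteins and are the usual readouts of YAP activity, together with *Ankrd1*, a protein of stretched muscle and fibroblasts. *Amotl2* encodes a member of the angiomotin family that binds YAP and holds it back, and *Thbs1* encodes thrombospondin, another protein of the extracellular matrix. Phosphorylation and location of the proteins were not measured here, only mRNA.

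TEAD proteins bind the letters GGAATG, and the bases upstream of members are shown so that they can be set beside the changes given further on. The letters were searched on both strands (CATTCC on the other) in RefSeq promoter windows of 300 bases, 250 before and 50 after the start, on GRCm38.p6. Windows were given for 7 of the 10 members, and none for *Ctgf*, *Thbs1* and *Tead1*. The motif lay in 7 of 9 member windows, from 6 of 7 genes, whereas it lay in 14.7% of all 32851 windows. In the lists of related genes given further on it lay in 11 of 25 windows of the Hippo pathway (44.0%), 3 of 12 of other YAP targets (25.0%) and 4 of 15 of SRF targets (26.7%). Apart from *Lats2*, whose match lay after the start, the matches of members all lay upstream of the RefSeq start. The only member window with 2 matches was that of *Ankrd1*, against 1.36% of all windows. The CArG box, which binds serum response factor (SRF), was in none of the 9 member windows and in 1.63% of all windows, so that no match overlapped it. The 250 bases before the start of *Cyr61* (chr3:145649986-145650235, minus strand), which fell, and of *Wwtr1* (chr3:57575911-57576160, minus strand), which rose, follow with the motif in capitals.

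*Cyr61* upstream: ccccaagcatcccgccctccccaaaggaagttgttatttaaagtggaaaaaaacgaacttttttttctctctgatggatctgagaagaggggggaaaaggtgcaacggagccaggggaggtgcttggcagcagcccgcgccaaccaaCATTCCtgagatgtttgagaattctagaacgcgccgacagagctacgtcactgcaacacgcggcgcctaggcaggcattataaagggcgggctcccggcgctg

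*Wwtr1* upstream: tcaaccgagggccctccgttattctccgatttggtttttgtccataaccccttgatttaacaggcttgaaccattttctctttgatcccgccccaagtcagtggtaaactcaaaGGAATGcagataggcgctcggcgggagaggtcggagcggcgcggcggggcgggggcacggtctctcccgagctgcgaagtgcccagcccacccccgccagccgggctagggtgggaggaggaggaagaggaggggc

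The motif began 103 bases before the RefSeq start in *Cyr61*, on the strand opposite to the gene, and 136 bases before it in *Wwtr1*. In *Wwtr1* this is the start of the minor transcript *Wwtr1-202* (chr3:57575910). The main transcript *Wwtr1-201* starts further downstream (chr3:57575828). The second *Wwtr1* window begins at another start and holds the same match. The 40 bases around the matches of the members whose main transcript was not called are given for *Yap1* (chr9:8004715-8004754, minus strand), *Amotl2* (chr9:102717722-102717761, plus strand) and *Ankrd1* (chr19:36120032-36120071 and chr19:36119945-36119984, minus strand).

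*Yap1*: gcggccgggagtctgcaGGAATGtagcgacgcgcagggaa
*Amotl2*: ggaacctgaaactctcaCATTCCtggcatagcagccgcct
*Ankrd1*, far match: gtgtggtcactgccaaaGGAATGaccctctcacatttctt
*Ankrd1*, near match: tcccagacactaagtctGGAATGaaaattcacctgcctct

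These matches began 141 bases before the RefSeq start in *Yap1*, 65 in *Amotl2*, and 210 and 123 in *Ankrd1*. The main transcript *Amotl2-201* starts at chr9:102717668 in GENCODE, so that the *Amotl2* match lies after that start. The motif was thus present upstream of the RefSeq start of a member that fell, of a member that rose and of members that were not called. A match in letters is a description of the window and does not show binding.

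The direction of the deposited effects was first read from *Setd2*, the targeted gene. Its tested transcript (*Setd2-201*, chr9:110532597-110618633 on GRCm38) had 3680 normalised estimated counts in WT and 923 in KD. This is a fall of 74.9% (95% confidence interval, 71.5 to 77.9%; limma adjusted p = 0.0144). A transcript was called higher or lower in KD at a limma adjusted p under 0.05, with Benjamini-Hochberg adjustment over the whole table. By this rule 1861 transcripts were higher (5.44% of all tested) and 1451 were lower (4.24%). The balance depends on the scaling: with effects centred by GC content 914 were higher (2.67%) and 1097 lower (3.21%), and relative to *Actb*, the reference gene of the RT-qPCR, 530 were higher (1.55%) and 9298 lower (27.2%). *Actb* was itself higher in KD (log2(fold change) 0.46 ± 0.11, limma adjusted p = 0.0414), a call that was lost with effects centred on the median (adjusted p = 0.0516) or by GC content (adjusted p = 0.0683) and without the trend of variance on level (adjusted p = 0.173). Fibroblast markers were all present in the table (9 of 9 genes, 2723 to 346235 counts in WT and 3501 to 388093 in KD). Single fibroblast markers moved in both directions, which was not tested: *Col1a1* had 228494 counts in WT and 142638 in KD, whereas *Fn1* had 276425 and 388093. Of 15 markers of epithelial, endothelial, blood and muscle cells 9 were in the table, at 5.42 to 303 counts in WT and 9.29 to 391 in KD and with sums of 693 and 804, and *Epcam*, *Krt18*, *Krt19*, *Cd3e*, *Myod1* and *Myog* were not listed. Their part in the results was not tested.

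Of the 24 member transcripts, 2 were higher in KD and 3 were lower, that is 8.33% and 12.5%, beside 5.44% and 4.24% of the whole table. Both that rose were *Wwtr1* transcripts, and those that fell were the target genes *Thbs1*, *Cyr61* and *Ctgf*. The other 19 did not pass the test. Of the 24, 16 reached a mean of 100 normalised estimated counts over the 4 libraries, and all 5 called transcripts were among them. Over all 24 the median log2(fold change) was -0.08, beside -0.01 over the whole table. Over the 16 the median log2(fold change) was -0.27, beside 0.05 over the 18832 transcripts of the table at that level, of which 9.09% were called higher and 6.55% lower. The spread between libraries of a group ranged from 0.026 to 0.286 (SD, log2) in the 16 transcripts, with a median of 0.080, beside a median of 0.112 over all transcripts at that level. These calls rest on letting the expected variance follow the mean level: without that trend limma called none of the 24, with adjusted p between 0.0864 and 0.131 for the 5, and 127 transcripts in the whole table (0.149% higher and 0.222% lower). At an unadjusted p under 0.05 it then gave 2 members higher and 7 lower. The Wald test, from each effect and its standard error, called 3 members higher and 8 lower, with all 5 among them, beside 10.4% and 7.80% of the table. It added *Yap1-202* as higher, and *Ctgf-203*, *Amotl2-201*, *Ankrd1*, *Lats1-202* and *Tead1-204* as lower. With the test restricted to a mean of at least 100, 2 members were higher and 6 lower, beside 15.5% and 10.8% of the transcripts at that level. Centred on the median, 2 were higher and 4 lower (4.32% and 4.95% of the table). Relative to *Actb*, 1 was higher and 13 lower, beside 1.55% and 27.2% of the table, and the members called lower then included transcripts of *Yap1*, *Lats1*, *Lats2*, *Tead1*, *Ankrd1* and *Amotl2*.

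**Figure D1:**
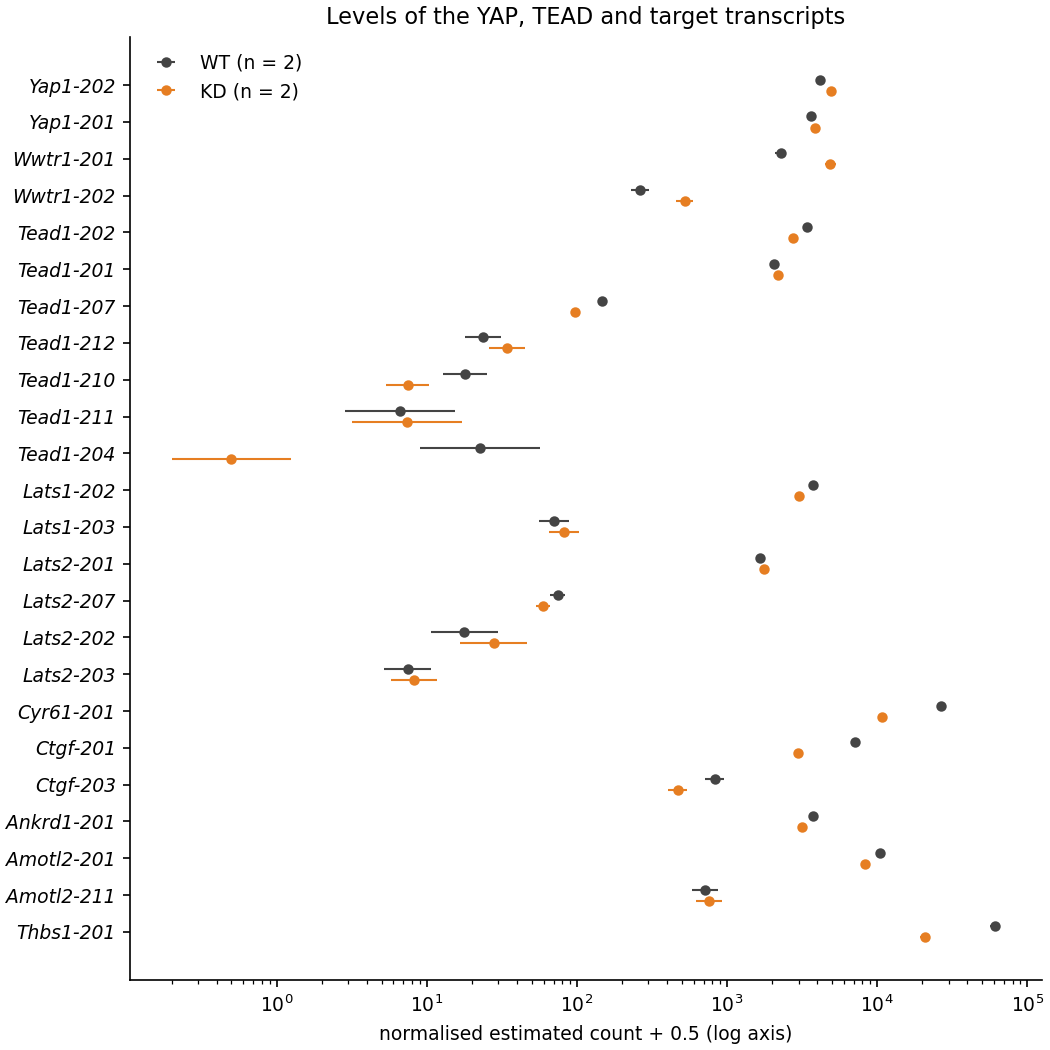
Normalised estimated counts plus 0.5 (log axis) of the 24 member transcripts in WT (grey) and KD (orange). Points are group levels of 2 libraries and bars are 1 SD within groups, pooled over both groups. The *Thbs1*, *Cyr61* and *Ctgf-201* points of KD lie left of WT by far more than the bars and those of *Wwtr1* lie right, while the *Yap1* points lie close together.

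Among the target genes, *Cyr61* stood at the highest level per length. Its single tested transcript (chr3:145646976-145649981, 5 exons) had 26717 normalised estimated counts in WT and 10769 in KD. It fell by 1.31 ± 0.078 on the log2 scale (SE of the effect; n = 2 libraries a group; limma adjusted p = 0.0144), or by 59.7% (95% confidence interval, 55.2 to 63.8%). The change was 33.8 times the SD within groups, 0.039. That SD rests on 2 libraries a group and is not the moderated value used in the test, so the ratio does not measure the strength of evidence.

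*Ctgf*, which lies on another chromosome, changed by nearly the same amount. Its main transcript *Ctgf-201* (chr10:24595442-24598678, 5 exons) held 89.5% of the counts of the gene in WT. It had 7078 counts in WT and 2986 in KD and fell by 1.24 ± 0.081 on the log2 scale (limma adjusted p = 0.0144), or by 57.8% (52.9 to 62.2%). Its SD within groups, 0.026, was the lowest of all members. The second transcript, *Ctgf-203*, lacks part of the coding sequence (879 coding bases beside 1044). It had 828 counts in WT and 469 in KD, a log2(fold change) of -0.82 ± 0.22 that did not pass the test (adjusted p = 0.0538). It passed when the test was restricted to transcripts with a mean of at least 100 (adjusted p = 0.0253), with effects centred on their median (adjusted p = 0.0494), relative to *Actb* (adjusted p = 0.0111) and by the Wald test (adjusted p = 0.00146).

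*Thbs1* showed the largest fall of the members that were called. Its transcript (chr2:118111876-118127133, 22 exons) had 61142 counts in WT and 20857 in KD. It fell by 1.55 ± 0.12 on the log2 scale (limma adjusted p = 0.0152), or by 65.9% (60.0 to 70.9%). Of the 18832 transcripts at or above a mean of 100, 100 had a lower log2(fold change), beside 214 for *Cyr61* and 256 for *Ctgf-201*.

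The other target genes gave smaller values. *Ankrd1* (chr19:36111966-36119910, 9 exons) had 3722 counts in WT and 3151 in KD, a log2(fold change) of -0.24 ± 0.084 (adjusted p = 0.159). *Amotl2-201* (chr9:102717668-102733418), which held 93.6% of the counts of its gene in WT, had 10448 counts in WT and 8342 in KD, a log2(fold change) of -0.32 ± 0.084 (adjusted p = 0.0789). Neither passed the test in the whole table. Restricted to transcripts with a mean of at least 100, *Amotl2-201* was called lower (adjusted p = 0.0396) and *Ankrd1* was not (adjusted p = 0.0875). The Wald test called both lower (adjusted p = 0.00115 and 0.0254), as did the scaling to *Actb* (adjusted p = 0.00798 and 0.00996), and centring by GC content called *Amotl2-201* (adjusted p = 0.0420) but not *Ankrd1* (adjusted p = 0.159). *Amotl2-211*, which begins at an earlier first exon, had 712 counts in WT and 758 in KD. Its interval ran from -0.47 to 0.65 on the log2 scale, wide enough to hold the value of *Amotl2-201*. The intervals of *Ankrd1* (-0.40 to -0.08) and *Amotl2-201* (-0.49 to -0.16) lie apart from those of *Cyr61* (-1.46 to -1.16), *Ctgf-201* (-1.40 to -1.09) and *Thbs1* (-1.78 to -1.32), although the difference between members was not tested.

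**Figure D2:**
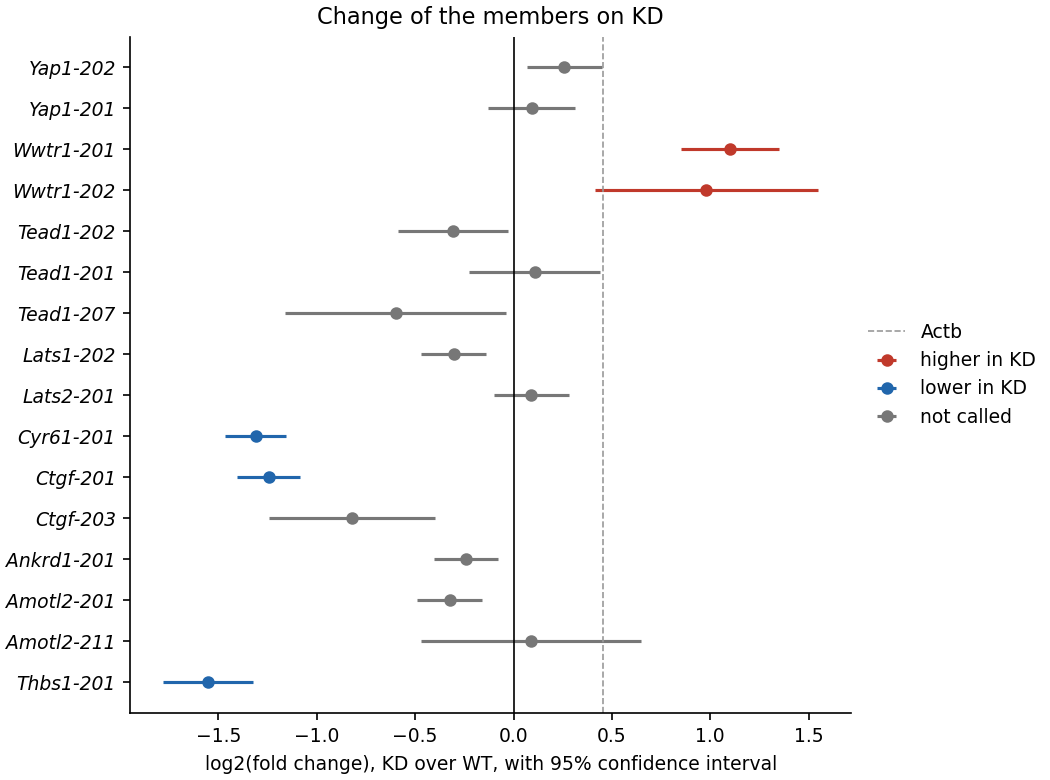
Log2(fold change) of KD over WT for the 16 member transcripts with a mean of at least 100, with 95% confidence intervals from the deposited standard errors. *Wwtr1* (red) lies between 0.98 and 1.10, *Thbs1*, *Cyr61* and *Ctgf-201* (blue) between -1.55 and -1.24, and the dashed line marks *Actb* at 0.46.

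Of the co-activators, *Wwtr1* rose and *Yap1* was not called. *Wwtr1-201* (chr3:57455649-57575828, 7 exons) had 2279 counts in WT and 4886 in KD. It rose by 1.10 ± 0.13 on the log2 scale (limma adjusted p = 0.0190), 2.14-fold, and 285 transcripts at or above a mean of 100 had a higher log2(fold change). *Wwtr1-202*, which begins further upstream and has a longer coding sequence (1356 bases beside 1185), had 264 counts in WT and 521 in KD. It rose by 0.98 ± 0.29 (limma adjusted p = 0.0390), 1.97-fold. Both transcripts thus rose by a like factor, and *Wwtr1-201* held 89.6% of the counts of the gene in WT and 90.4% in KD. Relative to *Actb* the change of *Wwtr1-202* no longer passed (0.52, adjusted p = 0.0788), whereas that of *Wwtr1-201* did (0.64, adjusted p = 0.0172).

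*Yap1* was measured as 2 transcripts at similar levels, which differ in their coding sequence by an exon of 48 bases (chr9:7950492-7950539, minus strand) that *Yap1-201* has and *Yap1-202* lacks. The exon is shown because reads over it and its junctions tell the transcripts apart.

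*Yap1-201* exon: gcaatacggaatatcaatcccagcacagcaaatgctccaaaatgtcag

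*Yap1-202* had 4138 counts in WT and 4950 in KD, a log2(fold change) of 0.26 ± 0.097 (adjusted p = 0.107). *Yap1-201* had 3635 counts in WT and 3873 in KD, a log2(fold change) of 0.09 ± 0.11 (adjusted p = 0.507). Neither was called by limma, whereas the Wald test called *Yap1-202* higher (adjusted p = 0.0440). Both values turned negative relative to *Actb* (-0.20 and -0.36), where *Yap1-201* was called lower (adjusted p = 0.0315) and *Yap1-202* was not (adjusted p = 0.115). The share of *Yap1-202* in the counts of the gene was 53.2% in WT and 56.1% in KD. Per kb of transcript and summed over transcripts, the level of *Yap1* was 3.45 times that of *Wwtr1* in WT and 1.85 times in KD.

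The kinases were not called in the whole table either. *Lats1-202* (chr10:7681214-7716460) had 3757 counts in WT and 3042 in KD, a log2(fold change) of -0.30 ± 0.085 (adjusted p = 0.0677), and was called lower with the test restricted to a mean of at least 100 (adjusted p = 0.0313), by the Wald test (adjusted p = 0.00309) and relative to *Actb* (adjusted p = 0.00706). *Lats2-201* (chr14:57689662-57746123) had 1657 counts in WT and 1765 in KD, a log2(fold change) of 0.09 ± 0.098 (adjusted p = 0.521) with an interval from -0.10 to 0.28. Its sign turned relative to *Actb* (-0.36), where it was called lower (adjusted p = 0.0335), and with effects centred by GC content (-0.06, adjusted p = 0.692). These transcripts held 98.2% and 94.4% of the counts of their genes in WT. The other transcripts, *Lats1-203* and 3 of *Lats2*, had means from 7.32 to 75.6 counts and intervals that spanned 0. Per kb, the level of *Lats1* was 1.47 times that of *Lats2* in WT and 1.12 times in KD.

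*Tead1* was spread over 7 tested transcripts, of which *Tead1-202* and *Tead1-201* held 60.3% and 35.9% of the counts in WT, and 54.2% and 43.0% in KD. They begin at different first exons, and *Tead1-201* has coding exons of 63 bases (chr7:112841888-112841950) and 12 bases (chr7:112856053-112856064) that *Tead1-202* lacks. The first, which separates the transcripts, is shown.

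*Tead1-201* exon: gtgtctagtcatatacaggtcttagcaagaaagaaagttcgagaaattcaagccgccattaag

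*Tead1-202* (chr7:112759384-112906805) had 3432 counts in WT and 2773 in KD, a log2(fold change) of -0.31 ± 0.14 (adjusted p = 0.111). *Tead1-201* (chr7:112679320-112906807) had 2046 counts in WT and 2203 in KD, a log2(fold change) of 0.11 ± 0.17 (adjusted p = 0.487), which was -0.35 relative to *Actb*. Their signs differed, but neither passed the test, and the difference between them was not tested. Relative to *Actb* both were called lower (adjusted p = 0.00946 and 0.0453). Beyond these, *Tead1-207* had 146 counts in WT and 96.5 in KD (adjusted p = 0.0953), and was called lower relative to *Actb* (adjusted p = 0.0151). *Tead1-212*, *Tead1-210* and *Tead1-211* had means of 27.9, 11.1 and 6.51 counts and intervals that spanned 0. *Tead1-204* was listed at 0 in KD, beside 22.1 counts in WT, with an SD within groups of 1.32 on the log2 scale (adjusted p = 0.0523), and is given without a fold. It was called lower by the Wald test (adjusted p = 0.0363) and relative to *Actb* (adjusted p = 0.0225).

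**Figure D3:**
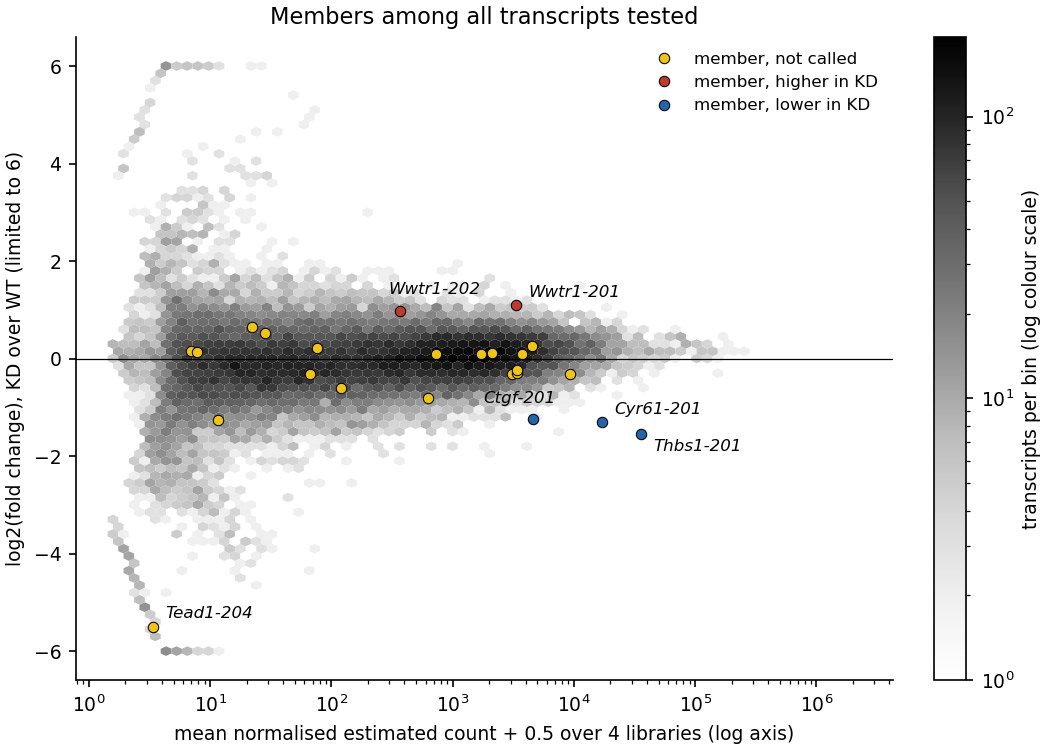
Log2(fold change), limited to 6 in size, against the mean normalised estimated count plus 0.5 (log axis) of all tested transcripts, in shades of grey by number per bin, with the member transcripts as points. *Thbs1*, *Cyr61* and *Ctgf-201* lie at the lower edge of transcripts of their level, with values of -1.55, -1.31 and -1.24, and *Wwtr1-201* at the upper edge, with 1.10.

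The levels of genes were compared per kb of transcript, summed over the tested transcripts. In WT the order from high to low was *Cyr61* (13233), *Thbs1* (10455), *Ctgf* (3284), *Amotl2* (2583), *Ankrd1* (2047), *Yap1* (1877), *Tead1* (733), *Wwtr1* (543), *Lats1* (538) and *Lats2* (366). In KD *Cyr61* (5334) and *Thbs1* (3567) stood first again, followed by *Yap1* (2131), *Amotl2* (2107), *Ankrd1* (1733), *Ctgf* (1434), *Wwtr1* (1155), *Tead1* (634), *Lats1* (442) and *Lats2* (395). *Ctgf* thus stood above *Amotl2*, *Ankrd1* and *Yap1* in WT and below all of them in KD, and *Wwtr1* stood below *Tead1* in WT and above it in KD. Neighbours closer than 2 SD within groups were *Ankrd1* and *Yap1* and *Wwtr1* and *Lats1* in WT, and *Yap1* and *Amotl2* in KD. The SD taken was the larger of those of the main transcripts of both neighbours. It is not an error of the sums and does not measure the error of comparing different genes, so the rest of the order was not tested. In RNA of whole cultures a lower level in every cell and fewer cells that express a gene cannot be told apart.

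**Figure D4:**
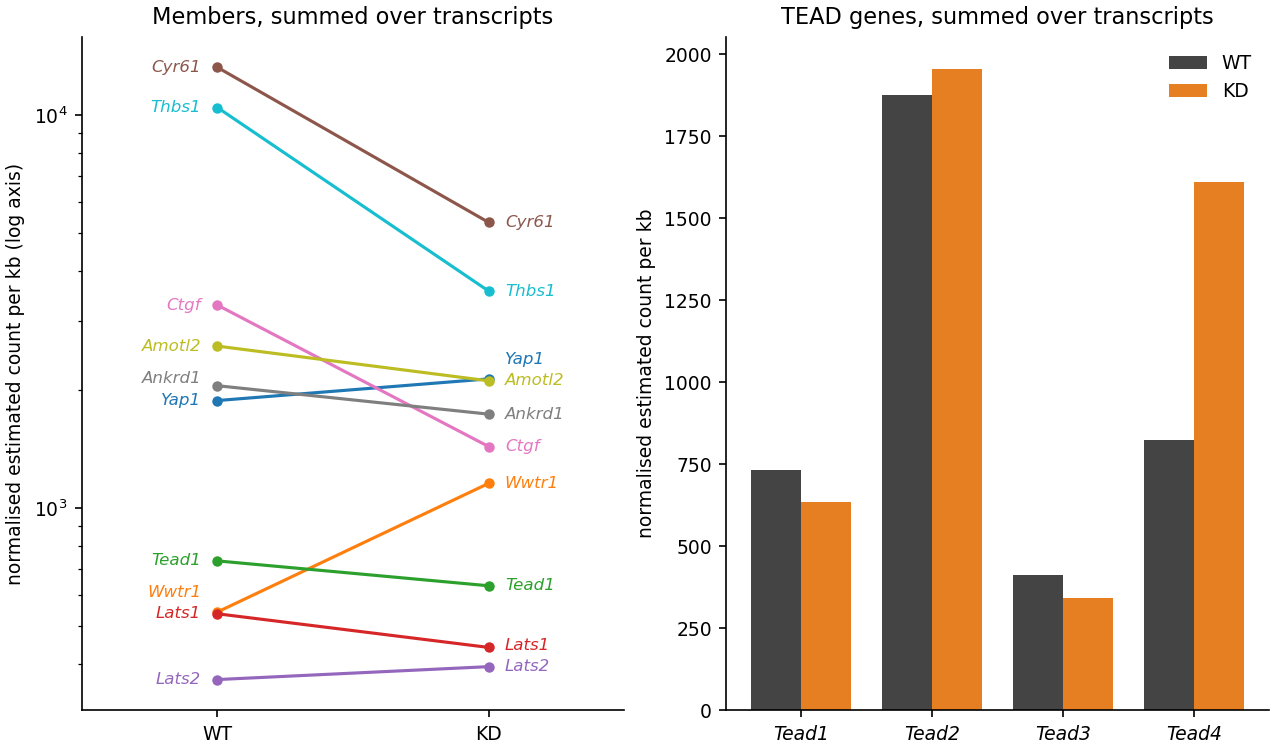
Left, normalised estimated counts per kb (log axis) of the 10 members in WT and KD, summed over transcripts. Right, the same quantity for the TEAD genes, with bars from 0. No error bars are drawn, since sums have no deposited error. *Ctgf* crosses *Amotl2*, *Ankrd1* and *Yap1* on the left, and *Tead4* stands at 823 in WT and 1610 in KD on the right.

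The TEAD family was looked at as a whole, since the co-activators can act through any of its members. *Tead2* held the highest level in both groups, 1875 per kb in WT and 1955 in KD, and none of its 3 transcripts was called. None of the 4 transcripts of *Tead3* was called (412 per kb in WT and 341 in KD). Both transcripts of *Tead4* rose: *Tead4-201* from 1707 counts to 3243 (log2(fold change) 0.93 ± 0.089, limma adjusted p = 0.0183) and *Tead4-203* from 461 to 954 (1.05 ± 0.14, adjusted p = 0.0178). The share of *Tead4* in the summed TEAD level was 21.4% in WT and 35.5% in KD, and that of *Tead1* was 19.1% and 14.0%.

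Other genes of the Hippo pathway were taken from a list of 27, of which 26 had 49 tested transcripts. Of these, 8 transcripts were higher in KD (6 genes) and 5 were lower (5 genes), 16.3% and 10.2%, beside 5.44% and 4.24% of the whole table. Among the 42 with a mean of at least 100 these are 19.0% and 11.9%, beside 9.09% and 6.55% of the transcripts at that level, and the median log2(fold change) was 0.02 both over all 49 and over the 42. Transcripts of kinases upstream of LATS moved in both directions. *Stk3-201*, which encodes MST2, had 3029 counts in WT and 1697 in KD and fell by 0.84 (adjusted p = 0.0201), while *Stk4*, its paralog MST1, had 2720 and 2942 counts (adjusted p = 0.375). *Map4k4-209*, a minor transcript, rose from 552 counts to 1239, by 1.17 (adjusted p = 0.0222). Summed over its 5 tested transcripts, *Map4k4* had 10337 counts in WT and 13910 in KD, a log2(fold change) of 0.43 that was not tested. *Vgll4*, a protein that competes with YAP for TEAD, fell by 0.75 (adjusted p = 0.0260), and its relative *Vgll3* fell by 0.58 (adjusted p = 0.0257), although that call was lost with effects centred by GC content (adjusted p = 0.0513). *Ptpn14-201*, a minor transcript of a phosphatase that binds YAP, had 149 counts in WT and 446 in KD (log2(fold change) 1.58, adjusted p = 0.0201), but its deposited standard error was 1.94 and the Wald test, which takes the assignment of reads into account, did not call it (adjusted p = 0.718). Its main transcript stood at 5688 and 5773 counts.

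Target genes of YAP that were not among the 10 moved in both directions. Of 17 listed genes 15 had 30 tested transcripts, of which 2 were higher and 5 were lower (6.67% and 16.7%), beside 5.44% and 4.24% of the whole table. The median log2(fold change) was -0.17 over the 30 and -0.07 over the 20 with a mean of at least 100, of which 2 were higher and 3 lower (10.0% and 15%, beside 9.09% and 6.55% at that level). The remaining lower calls, *Nuak2-201* and *Rbms3-202*, lay under that mean and were not called by the Wald test (adjusted p = 0.109 and 0.426). The main transcript *Nuak2-202*, with 94.6% of the counts of its gene in WT, was not called (limma adjusted p = 0.276). *Nuak2-201* was listed at 0 in KD, beside 52.6 counts in WT. Those that fell included *Rbms3-206*, a gene of an RNA-binding protein (683 counts in WT and 252 in KD, log2(fold change) -1.44, adjusted p = 0.0160), *Ccdc80*, a matrix protein (3031 and 1918 counts, -0.66, adjusted p = 0.0227), and *F3*, tissue factor (6126 and 3981 counts, -0.62, adjusted p = 0.0205). *Gadd45a*, a gene of the response to DNA damage, rose by 0.73 (1874 and 3101 counts, adjusted p = 0.0258), which did not pass relative to *Actb* (adjusted p = 0.0937), and the other transcript called higher was *Ptpn14-201*.

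*Cyr61*, *Ctgf* and *Thbs1* are also reached by SRF and its actin-sensitive co-activators, and *Actb* is itself a target of SRF. The activity of SRF was not measured, and its part in the changes of the members was not tested. Of 16 listed SRF targets 15 had 37 tested transcripts, of which 14 were lower in KD (37.8%) and 4 were higher (10.8%), beside 4.24% and 5.44% of the whole table. All 18 reached a mean of 100, so that among the 31 at that level 45.2% were lower and 12.9% higher, beside 6.55% and 9.09%. The 14 came from 9 genes, and 5 of them were transcripts of *Tpm1*, a tropomyosin. *Flna* counts among the 9 only through *Flna-203*, which held 9.34% of the counts of its gene in WT. Its main transcript *Flna-201* (67.2%) was not called (log2(fold change) -0.04, adjusted p = 0.756). The median log2(fold change) was -0.38 over the 37 and -0.44 over the 31. The largest falls were those of *Tagln* (2749 counts in WT and 560 in KD, log2(fold change) -2.29, adjusted p = 0.0144), *Acta2*, smooth muscle actin (7508 and 2131 counts, -1.82, adjusted p = 0.0183), and *Actg2* (415 and 134 counts, -1.63, adjusted p = 0.0199). *Zyx-202* rose by 0.98 (adjusted p = 0.0406) and *Zyx-207* by 0.77 (adjusted p = 0.0246), and both calls were lost with effects centred by GC content (adjusted p = 0.0737 and 0.0516) and relative to *Actb* (adjusted p = 0.0854 and 0.0699). *Tpm1-211* rose by 0.82 (adjusted p = 0.0210), while *Tpm1-216*, the most abundant *Tpm1* transcript in WT, had 7086 counts there and 3454 in KD and fell by 1.04 (adjusted p = 0.0191). *Srf* itself had 2320 counts in WT and 2310 in KD (adjusted p = 0.975).

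**Figure D5:**
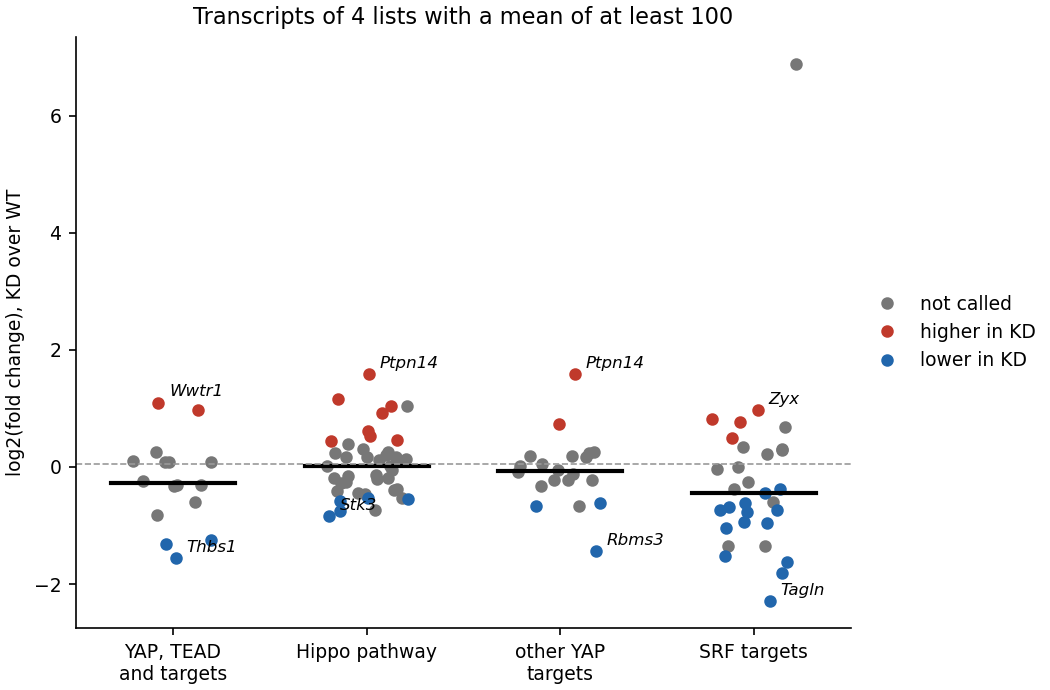
Log2(fold change) of transcripts at or above a mean of 100 in the 10 members and in 3 lists, with bars at the medians (-0.27, 0.02, -0.07 and -0.44) and a dashed line at the median of all such transcripts (0.05). Blue points are called lower and red points higher in KD, and the labels name the extreme called transcript in each direction. The SRF targets hold 14 blue and 4 red points.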

How the data were processed

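RNA-seq of 2 KD and 2 WT libraries was analysed; samples were grouped by the label for *Setd2*. The authors trimmed adapters with BBDuk, estimated counts with Kallisto and compared groups with Sleuth. The transcriptome used as index and the filter on low counts are not given in the sources used here. The deposited means, effects and standard errors are on the natural log scale of normalised estimated counts plus 0.5, and other deposited columns hold the authors' variances. The authors' p-values and q-values of their likelihood ratio and Wald tests, and the gene table built from them, were not used.

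Effects were converted to log2. Each group level is the exponential of its mean log value, minus 0.5. The residual variance within groups (2 degrees of freedom) was computed from the deposited variances, and limma 3.58.1 (R 4.3.3) moderated it with a trend on the mean. This test was tried first on simulated data whose variances followed the trend exactly. Such a trial cannot decide between the test with the trend and without it. The limma test was two-sided, over all transcripts, without covariates. Since it does not use the uncertainty of assigning reads to transcripts, a Wald test from effect and standard error was an alternative, beside no trend, a mean of at least 100, and effects centred on the median, by GC content or on *Actb*. Intervals of 95% use the normal quantile of 1.96 and were computed apart from limma, so that an interval may leave out 0 where limma made no call. Positions and lengths came from GENCODE M21 (GRCm38), where 98.6% of transcripts matched with the same version and *Ankrd1* matched by identifier alone; *Cyr61* and *Ctgf* are named *Ccn1* and *Ccn2* there. Transcript numbers such as 201 are those of GENCODE, and counts per kb use the whole transcript length. Transcripts that share exons share reads, so values of single transcripts are estimates.

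The members and all lists were chosen with earlier results of these data known. Of the members every tested transcript is given. Of each list the called transcripts with the 3 largest rises and falls, at a mean of 100 or more, are named, with all TEAD genes, *Setd2* and *Actb*; *Stk4*, *Srf* and the main transcript of *Ptpn14* were added after their values were seen.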

Additional observations from a re-analysis of the deposited data

How the results depend on the processing

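No paired analysis was possible because the analysis rests on means and variances over libraries, and for the same reason no library was left out in turn. Without the trend on the mean, 51 transcripts of the table were higher and 76 lower, 0 members were called in either direction, 0 of the Hippo list (higher and lower), 0 higher and 1 lower of the YAP targets, and 0 of the SRF targets in either direction; at an unadjusted p under 0.05 limma without the trend gave 9 members, 17 of the Hippo list, 9 of the YAP targets and 20 of the SRF targets, and *Setd2-201* had an adjusted p of 0.0537. By the Wald test 3566 were higher and 2667 lower, 8 members were lower, 8 of the Hippo list were lower and 7 of the SRF targets higher. With a mean of at least 100, 2927 were higher, 6 members were lower and 8 of the Hippo list were lower. Centred by GC content, 914 were higher, with 4 higher in the Hippo list and 1 higher in the SRF list. Relative to *Actb*, 530 were higher and 9298 lower, with 1 member higher and 13 lower, 4 and 21 of the Hippo list, 1 and 14 of the YAP targets, and 1 higher of the SRF targets. These are the alternatives that moved a count by over 1.5 times; centring on the median moved none of them.

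The sign of members that were not called turned relative to *Actb* in *Yap1-202* (-0.20), *Yap1-201* (-0.36), *Tead1-201* (-0.35), *Tead1-211* (-0.31), *Lats1-203* (-0.23), *Lats2-201* (-0.36), *Lats2-203* (-0.32) and *Amotl2-211* (-0.37), and by GC content in *Yap1-201* (-0.0028), *Lats2-201* (-0.060) and *Amotl2-211* (-0.14). No called member turned. The *Actb* scaling takes no account of the error of *Actb* itself.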
